A study of Danio rerio with 6 samples.

Results

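The genes described here act in the antimicrobial chemistry of phagocytes. They were taken by symbol from the deposited gene counts: acod1 (itaconate synthesis), cybb, cyba, ncf1 and ncf4 (the phagocyte NADPH oxidase) and nos2a and nos2b (inducible nitric oxide synthases). Each of the 7 symbols named a single row among 36351 gene rows, and all 7 passed the low-count filter. RNA sequencing was done on dsRed-positive cells sorted from zebrafish skeletal tissue at 10 weeks post fertilization, 3 libraries from clcn7-/- mutants and 3 from WT siblings. All fish carried ctsk:dsRed, in which regulatory sequence of the osteoclast protease gene ctsk drives a red fluorescent protein. Each library pooled 5000 sorted cells from each of 2 fish, so variation between single fish within a library cannot be seen. clcn7 encodes a lysosomal chloride/proton exchanger needed for acid secretion by osteoclasts. The labels do not describe the mutant allele, and they name no clutch, sex or sequencing batch. The comparison asks how these genes differ between reporter-positive cells of clcn7-/- and WT fish. Resorption itself was not measured in these libraries.

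Macrophages make itaconate from the citrate cycle intermediate cis-aconitate, in mitochondria, with the decarboxylase encoded by acod1, and itaconate inhibits succinate dehydrogenase. The phagocyte oxidase moves electrons from NADPH across a membrane to oxygen, which gives superoxide. Its membrane part is a flavocytochrome made of the products of cybb and cyba, and its cytosolic part, to which the products of ncf1 and ncf4 belong, joins it with a Rac GTPase when a phagocyte is activated. Inducible nitric oxide synthases make nitric oxide from arginine with tetrahydrobiopterin as a cofactor. Neutrophils, macrophages and osteoclasts share a myeloid origin.

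The libraries held 22739782 to 26951306 read counts over genes. An osteoclast marker list was looked up. It cannot test the identity of the cells, since regulatory sequence of ctsk drove the sorted reporter and markers of other cells passed the filter too. The WT libraries held 464 to 1024 CPM of ctsk (read counts scaled to a common library size with TMM factors) and the mutant libraries 1055 to 1266 CPM, and all 18 osteoclast markers passed the low-count filter. The osteoclast markers summed to 1304 to 2843 CPM in WT and 2367 to 3394 CPM in mutants. Markers of other cells were also present, and all 10 keratinocyte and 14 osteoblast markers found in the counts passed the filter. Keratinocyte markers summed to 41502 to 50308 CPM in WT and 15953 to 26222 CPM in mutants. Osteoblast markers summed to 54834 to 79649 CPM in WT and 37169.6 to 54891 CPM in mutants. In bulk RNA, a change in the number of cells of a type and a change in RNA per cell cannot be told apart.

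Of the 7 genes, 5 rose in clcn7-/- cells, none fell, and cyba and nos2a did not pass the edgeR test (quasi-likelihood, Benjamini-Hochberg adjusted p under 0.05 over 20438 genes). Among all tested genes 9.91% were called higher and 4.83% lower. The median log2 fold change of the 7 genes was 3.40, and that of all tested genes was -0.05. In 6 of the 7 genes every mutant library lay above every WT library, as was so for 19.4% of tested genes. Among all called genes, 67.2% were higher in mutants with TMM scaling, 51.6% with factors from the upper quartile and 82.3% with unscaled library sizes. The median over all tested genes moved to -0.16 with the upper quartile and to 0.10 with unscaled library sizes.

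acod1 had the highest fold change of the 7. In replicates 1, 2 and 3 of the WT group its level was 4.05, 6.12 and 6.13 CPM, and the same replicates of the mutant group had 125, 161 and 138 CPM. The genotypes were far apart, and the libraries within a genotype were close together, with a coefficient of variation of 22.0% in WT and 13.0% in mutants. The mean rose from 5.43 ± 1.19 to 141 ± 18.4 CPM (SD, n = 3), a fitted change of 26.0-fold (log2 fold change 4.7 ± 0.22, SE; edgeR adjusted p = 0.00015). The authors' deposited table gives a log2 fold change of 4.71. The WT level rested on 103 to 155 reads per library and the mutant level on 2885 to 4592 reads.

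**Figure D1:**
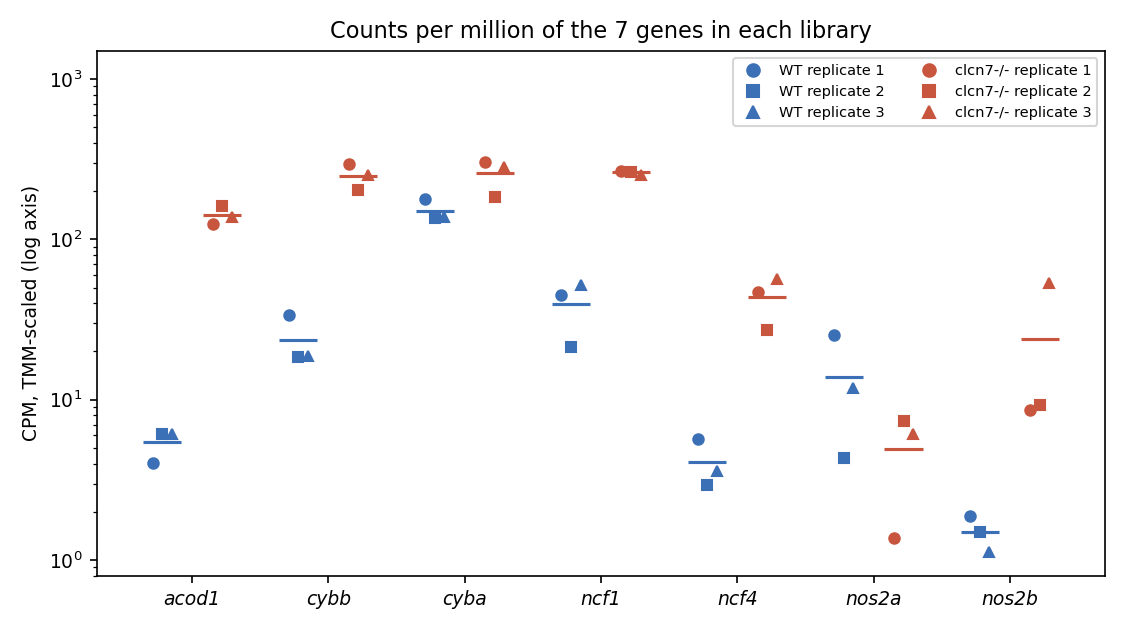
CPM (TMM-scaled, log axis) of the 7 genes in each of the 6 libraries, WT in blue and clcn7-/- in red, with horizontal lines at the mean of 3 libraries and a marker shape for each replicate number. acod1 lies between 4.05 and 6.13 CPM in WT and between 125 and 161 CPM in mutants, while the 2 genotypes overlap for nos2a.

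Among the oxidase subunit genes, cybb, ncf1 and ncf4 rose. cybb, the catalytic heavy chain of the flavocytochrome, measured 33.8, 18.5 and 18.7 CPM in the WT libraries and 293, 204 and 253 CPM in the mutant libraries. WT replicate 1 was the highest WT library, and it still lay far below the lowest mutant library. The fitted change was 10.6-fold (log2 fold change 3.40 ± 0.29, edgeR adjusted p = 0.000817).

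cyba encodes the light chain, which stabilises the heavy chain and also serves other NADPH oxidases. It measured 178, 136 and 138 CPM in WT and 305, 185 and 283 CPM in mutants. The genotypes did not overlap, but WT replicate 1 and mutant replicate 2 lay close to each other. The log2 fold change was 0.78 ± 0.22, which missed the threshold (edgeR adjusted p = 0.0511). Of 15 alternative fits 9 called it, among them DESeq2 (adjusted p = 0.00638) and limma-voom (adjusted p = 0.0275). With mutant replicate 2 left out its log2 fold change was 0.97 (edgeR adjusted p = 0.0172). The adjusted p lay between 0.00638 and 0.421 over these fits, the highest with glmTreat against a fold of 1.5. The authors' deposited table gives an adjusted p of 0.00675.

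ncf1 encodes the organizer subunit, whose phosphorylation starts assembly. It measured 45.3, 21.2 and 51.7 CPM in WT and 268, 263 and 253 CPM in mutants. The mutant libraries were nearly equal, with a coefficient of variation of 2.75%, against 40.8% in WT, where replicate 2 was lowest. The log2 fold change was 2.73 ± 0.31 (edgeR adjusted p = 0.00211).

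ncf4, whose product binds phosphatidylinositol 3-phosphate on phagosomes, measured 5.67, 2.96 and 3.61 CPM in WT and 47.3, 27.1 and 56.9 CPM in mutants. Mutant replicate 2 was the lowest mutant library for ncf4, as it was for cybb and cyba. The log2 fold change was 3.42 ± 0.36 (edgeR adjusted p = 0.00171). The calls of acod1, cybb, ncf1 and ncf4 were kept in all 15 alternative fits.

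The paralogs for inducible nitric oxide synthase had fitted changes of opposite sign, and one of them passed the test. nos2a measured 25.5, 4.34 and 11.8 CPM in WT and 1.38, 7.33 and 6.08 CPM in mutants. The genotypes overlapped, because WT replicate 2 lay below mutant replicates 2 and 3. Its log2 fold change was -1.48 ± 0.73 and did not pass the test (edgeR adjusted p = 0.216, and 0.103 to 0.621 over the alternative fits). Without WT replicate 1, the highest library, it was -0.66.

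nos2b measured 1.89, 1.5 and 1.13 CPM in WT and 8.57, 9.29 and 53.4 CPM in mutants. All mutant libraries lay above all WT libraries, and mutant replicate 3 stood far above the others, with 1493 reads against 198 and 265. The log2 fold change was 3.97 ± 0.78 (edgeR adjusted p = 0.0152). Without mutant replicate 3 it was 2.57, and the gene was still called (edgeR adjusted p = 0.00656). The call was lost without WT replicate 2 (edgeR adjusted p = 0.0638) and without WT replicate 3 (edgeR adjusted p = 0.0707), and it was kept in the other 13 alternative fits.

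Ratios within a library do not depend on its size, apart from the 0.5 CPM added to each gene. They show whether pairs of these genes changed by different amounts. The log2 ratio of cybb to cyba (CPM plus 0.5 each) was -2.38, -2.85 and -2.85 in the WT libraries and -0.06, 0.14 and -0.16 in the mutant libraries. The genotypes were separated by 2.67 on the log2 scale, well beyond the SD of 0.27 in WT and 0.16 in mutants. The log2 ratio of acod1 to cybb went from a mean of -1.99 ± 0.80 to -0.82 ± 0.45 (SD, n = 3), a difference of 1.17. Without WT replicate 1, which had the lowest ratio, that difference was 0.71. The log2 ratio of nos2a to nos2b was 3.44, 1.28 and 2.91 in WT and -2.27, -0.32 and -3.03 in mutants. Every mutant library lay below every WT library. In each of these 3 comparisons a two-sided exact permutation test gave p = 0.1, also after Benjamini-Hochberg adjustment, which is the smallest p that 3 against 3 libraries allow. A level of one gene cannot be set against that of another here, since counts were not scaled by transcript length.

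**Figure D2:**
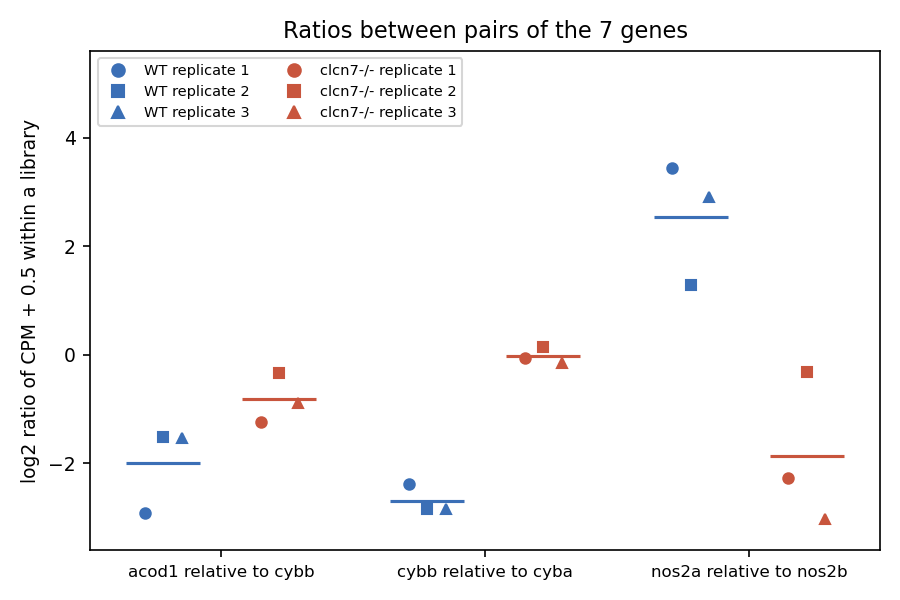
Log2 ratio of CPM + 0.5 between pairs of genes within each library, WT in blue and clcn7-/- in red, with lines at the mean of 3 libraries. The ratio of cybb to cyba lies between -2.85 and -2.38 in WT and between -0.16 and 0.14 in mutants, and the ratio of nos2a to nos2b lies between 1.28 and 3.44 in WT and between -3.03 and -0.32 in mutants.

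Genes around the oxidase were looked up from a list of partners and regulators, which also held the neutrophil gene mpx. Of its 11 tested genes edgeR called 6 higher and 0 lower (median log2 fold change 0.72). The shares called among all tested genes were 9.91% higher and 4.83% lower. rac2, the Rac GTPase of blood cells, rose by 1.94 ± 0.27 on the log2 scale, and mpx, the myeloperoxidase gene of neutrophils, by 3.36 ± 0.29. mpx also belongs to the neutrophil list below, and rac2 to the list of markers shared by leukocytes. The protein kinase C genes prkcdb (1.51 ± 0.24), prkcbb (1.32 ± 0.25) and prkcda (1.2 ± 0.25), whose products phosphorylate the organizer subunit in mammals, rose as well. A further protein kinase C gene of the list, prkcba, went from 30.3, 13.8 and 16.4 to 10.8, 14.7 and 11.3 CPM with overlap and did not pass (-0.72 ± 0.31, edgeR adjusted p = 0.163). cybc1 encodes a chaperone of the flavocytochrome in mammals. It went from 25.3, 24.1 and 26.8 to 48.4, 32 and 44.7 CPM (log2 fold change 0.72 ± 0.18, edgeR adjusted p = 0.0363), and it was called in 1 of 6 fits that left out a library. The calls of prkcbb and prkcda ended without WT replicate 3 (edgeR adjusted p = 0.0575 and 0.0746). Without WT replicate 3, 3 members of the list rose. With glmTreat against a fold of 1.5, 3 members rose as well, and prkcbb, prkcda and cybc1 were not called (adjusted p = 0.0606, 0.0839 and 0.471). Factors from the upper quartile did not call cybc1 either (edgeR adjusted p = 0.0519). cybc1 and prkcda were named after their values were seen. The broadly expressed Rac genes rac1a (-0.35 ± 0.13) and rac1b (-0.42 ± 0.14) and the proton channel gene hvcn1 (-0.05 ± 0.16) did not pass the edgeR test. With factors from the upper quartile rac1a and rac1b were called lower (edgeR adjusted p = 0.0485 and 0.0388), and DESeq2 called rac1b lower (adjusted p = 0.0357). prkcba, rac1a, rac1b and hvcn1 too were named after their values were seen.

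**Figure D3:**
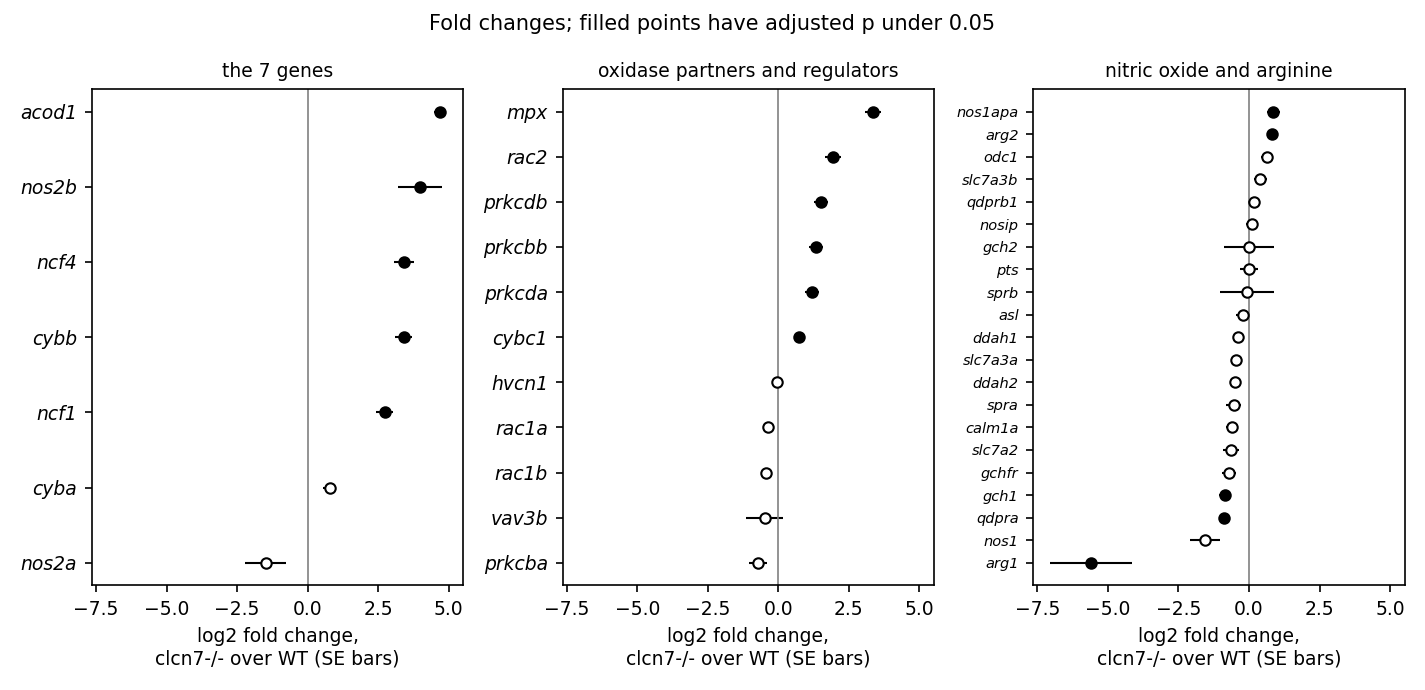
Log2 fold change of clcn7-/- over WT with SE bars for the 7 genes, for the tested oxidase partners and regulators, and for the tested nitric oxide and arginine genes, with filled points where the edgeR adjusted p is under 0.05. acod1 stands at 4.7 and cyba at 0.78, and arg1 has the lowest value, -5.59.

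The NADPH oxidase genes of other cells, listed with organizer and activator subunit genes (noxo1a, noxo1b and noxa1), were low in all libraries. Of 7 genes of that list 4 passed the low-count filter and 0 were called by edgeR or in any of the 15 alternative fits, DESeq2 and limma-voom included. Over all tested genes edgeR called 14.7% in either direction, so 0 of 4 cannot set this list apart from other genes. An unadjusted p under 0.05 was seen for 1 gene. The list summed to at most 13.4 CPM in a library. noxo1a had 3.79 ± 3.4 CPM in WT and 0.956 ± 0.661 CPM in mutants, and noxa1 had 2.38 ± 1.42 and 2.13 ± 1.74 CPM.

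Around itaconate, 3 of 20 tested genes rose and 2 fell, around a median of 0.00 on the log2 scale. The shares over all tested genes were 9.91% higher and 4.83% lower. The risers were the 3 subunit genes of succinyl-CoA synthetase, the citrate cycle enzyme that makes succinate. suclg1 went from 75.3, 89.1 and 80.3 to 242, 192 and 251 CPM (log2 fold change 1.49 ± 0.16, edgeR adjusted p = 0.00175). sucla2 (0.98 ± 0.12) and suclg2 (0.82 ± 0.14) rose too, and glmTreat against a fold of 1.5 did not call suclg2 (adjusted p = 0.187). sdhda, a membrane anchor gene of succinate dehydrogenase, fell from 6.75 ± 1.24 to 2 ± 0.379 CPM, and the dicarboxylate carrier gene slc25a10 from 28.6 ± 3.36 to 15.6 ± 2.34 CPM. The call of slc25a10 ended when WT replicate 2, WT replicate 3 or mutant replicate 1 was left out (edgeR adjusted p = 0.0699, 0.0939 and 0.0517). In each of these 3 fits sdhda was the one faller of the list. The paralog of sdhda, sdhdb, had 61.7 ± 4.29 CPM in WT and 67.9 ± 5.51 CPM in mutants and did not pass (edgeR adjusted p = 0.537). The other succinate dehydrogenase genes sdha (-0.05 ± 0.16), sdhb (0.18 ± 0.15) and sdhc (-0.22 ± 0.14) did not pass either. sdhdb, sdha, sdhb and sdhc were named after their values were seen.

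irg1l is a paralog of acod1. It measured 2.28, 2.68 and 28.8 CPM in WT and 1.9, 2.17 and 0 CPM in mutants. No read was counted in mutant replicate 3, which allows up to 0.116 CPM without TMM scaling (3 reads, counting error only). The mutant libraries lay below the WT libraries, and WT replicate 3 held most of the reads, 663 against 58 and 68 in the other WT libraries. Its log2 fold change of -3.05 ± 1.35 did not pass the test (edgeR adjusted p = 0.174) and was -0.82 without WT replicate 3. irg1l and the nos1 gene described below were named after their values were seen.

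Regulators known from mammals to induce acod1 or to respond to itaconate were a further list. In it 4 of 14 tested genes rose and none fell (median log2 fold change 0.21). Over all tested genes the shares called were 9.91% higher and 4.83% lower. tfeb, which encodes a lysosomal transcription factor, went from 7.12, 3.75 and 4.87 to 37, 24.2 and 58.9 CPM (log2 fold change 2.93 ± 0.38, edgeR adjusted p = 0.00322). The myeloid transcription factor genes irf8 (2.63 ± 0.42) and cebpb (1.30 ± 0.18) rose, and irf8 also belongs to the macrophage list below. nfkbiz rose by 0.81 ± 0.21, a call kept in 1 of 6 fits that left out a library and in 7 of 15 alternative fits. nfe2l2a, whose protein drives antioxidant genes and is activated by itaconate in mammals, had a level of 396 ± 11.7 CPM in WT against 444 ± 65.9 CPM in mutants and did not pass (edgeR adjusted p = 0.513). It was also named after its values were seen.

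Of 21 tested genes of nitric oxide and arginine metabolism, 2 rose and 3 fell, and the median was -0.39 on the log2 scale. Among all tested genes the shares called were 9.91% higher and 4.83% lower. The share of the list that rose was thus near that of all genes, and the share that fell was above it. With 1 library left out at a time 0 to 3 genes of the list fell. gch1 and qdpra, which fell, serve tetrahydrobiopterin. gch1, which encodes the enzyme that starts its synthesis, went from 200.1, 238 and 239.6 to 145, 142 and 86.2 CPM (log2 fold change -0.86 ± 0.22, edgeR adjusted p = 0.0372). qdpra, which encodes the enzyme that regenerates it, went from 202 ± 26.3 to 109 ± 20.7 CPM (-0.89 ± 0.18, edgeR adjusted p = 0.0184). Tetrahydrobiopterin also serves the synthesis of catecholamines and serotonin.

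The arginase genes, whose products compete for arginine, moved in opposite directions. arg2 rose from 38.5 ± 2.1 to 68.5 ± 16.9 CPM (log2 fold change 0.83 ± 0.20, edgeR adjusted p = 0.0297). arg1 measured 0.197, 23.7 and 9.12 CPM in WT and 0.173, 0.421 and 0.0715 CPM in mutants. Its call (log2 fold change -5.59 ± 1.46, edgeR adjusted p = 0.0416) rests on WT replicates 2 and 3, since WT replicate 1 held 5 reads and lay within the mutant range. limma-voom did not call it (adjusted p = 0.452). The other riser was nos1apa, which encodes an adaptor protein of neuronal nitric oxide synthase (0.86 ± 0.24, edgeR adjusted p = 0.0486).

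Few of these calls held when a library was left out. Of the 6 fits that left out a library, 1 kept the call of arg1, 1 that of arg2, 1 that of gch1, 4 that of qdpra and none that of nos1apa. The list had 0 to 1 risers and 0 to 3 fallers in those fits. DESeq2 gave 3 risers and 7 fallers, factors from the upper quartile gave 1 and 5, and glmTreat against a fold of 1.5 gave 0 and 0. Of all 20438 tested genes DESeq2 called 2744 higher and 1921 lower, and upper-quartile factors 1787 and 1675. In both of these fits the share of fallers was higher in the list than over all genes. The neuronal synthase gene nos1 measured 11, 3.59 and 3.13 CPM in WT and 2.16, 2.39 and 1.47 CPM in mutants (-1.56 ± 0.54, edgeR adjusted p = 0.0934), and DESeq2 called it (adjusted p = 0.0291). In the list of the nitric oxide receptor and its targets 0 of 7 tested genes were called by edgeR or in any of the 15 alternative fits, DESeq2 and limma-voom included. Over all tested genes edgeR called 14.7% in either direction, so 0 of 7 cannot set this list apart. An unadjusted p under 0.05 was seen for 2 of its genes, which had opposite signs. These were pde5ab (-0.72 ± 0.28) and its paralog pde5aa (2.05 ± 0.81), which held 3, 12 and 5 reads in WT. pde5aa was named after its values were seen. In that list, pde5ab had 8.06 ± 0.441 CPM in WT against 4.88 ± 1.48 CPM in mutants, and prkg1b had 5.82 ± 0.461 against 4.82 ± 0.894 CPM.

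Most markers of phagocytes rose, as did the called genes among the 7. Of 17 tested neutrophil markers 16 rose, of 21 macrophage markers 19 rose, and of 10 markers shared by leukocytes 10 rose, rac2 among the last. Not called were timp2b (0.64 ± 0.22) of the neutrophil list and mpeg1.2 (-0.17 ± 0.19) and cd74a (0.99 ± 0.35) of the macrophage list. timp2b, mpeg1.2 and cd74a were named after their values were seen. Summed over the list, neutrophil markers stood at 778 to 874 CPM in WT and 2695 to 3122 CPM in mutants, macrophage markers at 1471 to 2352 and 3515 to 7711 CPM, and leukocyte markers at 329 to 583 and 1776 to 2998 CPM. No marker in these lists was at 0 in all libraries, and the defining genes mpx, lyz, mpeg1.1 and marco were detected in every library of both genotypes. Of 18 osteoclast markers 2 rose and 1 fell, with sums of 1304 to 2843 CPM in WT and 2367 to 3394 CPM in mutants. Over all tested genes 9.91% were called higher and 4.83% lower, so these counts of 2 and 1 osteoclast markers were near these shares. The osteoclast count depended on single libraries, with 6 risers without WT replicate 1, 1 riser without WT replicate 2, WT replicate 3, mutant replicate 1 or mutant replicate 3, and no faller in those last 4 fits. DESeq2 called 6 osteoclast markers higher, and limma-voom and the fit with a replicate block 5 each. Of all 20438 tested genes these fits called 2744, 2318 and 1940 higher, which are smaller shares than among the 18 markers. The fit without WT replicate 1 called 1828 of 21196 genes higher, also a smaller share. Of 7 tested lymphocyte markers 2 rose, of 8 endothelial markers 2 rose and of 10 erythroid markers 8 rose, while 6 of 10 keratinocyte and 4 of 14 osteoblast markers fell. With 1 library left out at a time, 0 to 2 lymphocyte, 0 to 3 endothelial and 6 to 9 erythroid markers rose, and 1 to 7 keratinocyte and 2 to 5 osteoblast markers fell. No lymphocyte marker rose without WT replicate 3, mutant replicate 1 or mutant replicate 3, and 1 rose without WT replicate 1 or 2. No endothelial marker rose when any one of the WT libraries was left out, 1 rose without mutant replicate 2 or 3, and 3 without mutant replicate 1. The keratinocyte count was 1 without WT replicate 3 and 3 without mutant replicate 1 or 3, and the lowest osteoblast count without WT replicate 2 or mutant replicate 3. The part of these shifts in the changes of the 7 genes was not tested.

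The 7 genes were also set against the mean log2 level of the neutrophil, macrophage and osteoclast markers in the same library. The mean log2(CPM + 0.5) of the neutrophil markers was 2.48 higher in mutants, and that of the macrophage markers 2.28 higher. acod1 was higher in mutants relative to both of these lists. Relative to the neutrophil markers it stood at -2.23, -1.34 and -1.72 in WT and 0.28, 0.41 and 0.34 in mutants, a difference of 2.11, and relative to the macrophage markers the difference was 2.31. With any library left out these differences stayed between 1.88 and 2.32 and between 1.89 and 2.55.

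cybb was higher as well, by 0.94 relative to the neutrophil list and by 1.14 relative to the macrophage list, with no overlap on either scale. Such differences depend on the make-up of the lists, whose median log2 fold changes were 2.64 and 2.65. The neutrophil markers lyz (3.65) and mmp25b (4.07) and the macrophage markers slc7a7 (3.6) and il10ra (3.68) rose by more than cybb (3.4). Other members moved little, such as srgn (0.79) and mpeg1.2 (-0.17). These markers were named after their values were seen. ncf4 differed by 0.97 relative to the macrophage list, with no overlap, and by 0.77 relative to the neutrophil list, where mutant replicate 2 fell among the WT libraries. ncf1 differed by 0.33 and 0.53, and the genotypes overlapped on both scales. cyba went the other way, with -1.73 relative to neutrophil markers and -1.53 relative to macrophage markers, and no overlap. Its CPM was nevertheless higher in every mutant library. The list means rose by 2.48 and 2.28, so any gene that rose by less stands lower on these scales. The share of all genes that do so was not computed.

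nos2a was lower in mutants relative to the neutrophil and macrophage lists, with differences of -3.81 and -3.61 and no overlap. The list means themselves rose by 2.48 and 2.28, so a gene of unchanged level would also stand lower on these scales. In CPM the genotypes overlapped for nos2a, and it did not pass the edgeR test. nos2b differed by 0.61 and 0.80 with overlap, since mutant replicates 1 and 2 lay within or near the WT range and mutant replicate 3 lay above it. With 1 library left out at a time the difference for nos2b ranged from -0.24 to 1.07 relative to the neutrophil list.

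The mean of the 18 osteoclast markers was 0.49 higher in mutants, so differences relative to it were closer to the fold changes. They were 4.1 for acod1, 2.93 for cybb, 2.32 for ncf1, 2.76 for ncf4 and 2.6 for nos2b, each with no overlap. cyba differed by 0.26 and nos2a by -1.82, and in both the genotypes overlapped. The sign for cyba was thus opposite to that relative to the neutrophil and macrophage lists. With 3 libraries per genotype no permutation test of such a difference can reach 0.05, and these values are descriptions.

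**Figure D4:**
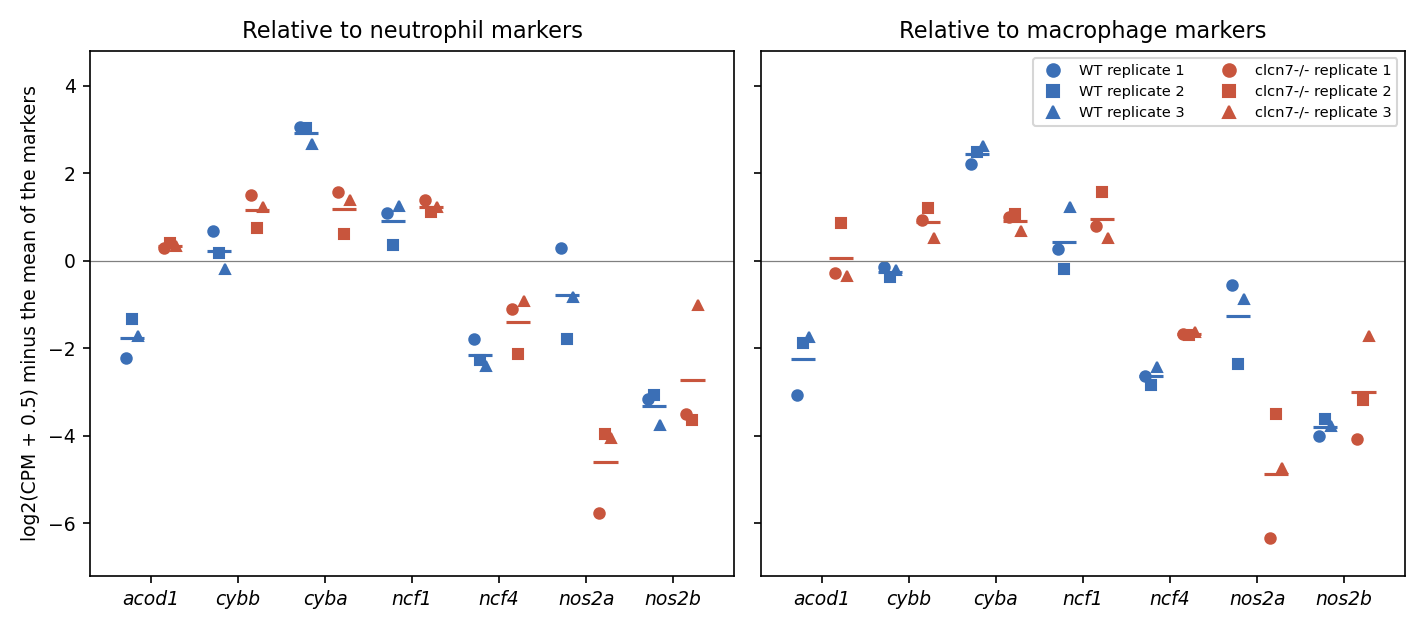
Log2(CPM + 0.5) of each gene minus the mean of 17 neutrophil markers (left) or 21 macrophage markers (right) in the same library, WT in blue and clcn7-/- in red, with lines at the mean of 3 libraries. acod1 and cybb lie higher in all mutant libraries on both scales, cyba and nos2a lie lower, and ncf1 overlaps between genotypes. The marker means were 2.48 (neutrophil) and 2.28 (macrophage) higher in mutants, so a gene of unchanged level would also lie lower.

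The genes with the most similar profiles were found among 11232 tested genes with a mean of at least 5 CPM, by the root mean square difference of log2 CPM over the 6 libraries after each profile was centred on its mean. For acod1 they were the granulocyte colony-stimulating factor gene csf3a (0.38) and the angiopoietin gene angpt2a (0.40), which measured 1.3 to 1.69 and 0.157 to 0.652 CPM in WT and 29.9 to 30.5 and 8.42 to 13.1 CPM in mutants. Both passed the minimum of 5 CPM only through the mutant libraries, where they were high. For cybb they were gpr141 (0.19) and inpp5d (0.21), an inositol phosphatase gene of blood cells. For ncf1 they were the tumour necrosis factor gene tnfb (0.14) and the leukotriene B4 receptor gene ltb4r (0.14), and for ncf4 cd22 (0.10) and the connexin gene cx28.1 (0.14). gpr141, cd22 and cx28.1 also passed that minimum only through the mutant libraries, with at most 2.28, 1.42 and 2.36 CPM in WT.

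cyba was most like cpeb4a (0.02) and gng10 (0.07). The nitric oxide synthase genes had no close match, with differences of 0.54 and 0.60 for nos2a (pak6b and sp8a) and 0.53 and 0.56 for nos2b (slc29a1b and dicp3.3). slc29a1b shared the high value of nos2b in mutant replicate 3, at 54 CPM against 21.6 and 18.2 CPM in the other mutant libraries. In WT it measured 6.61, 3.27 and 2.35 CPM, so the mutant libraries raised it past the minimum mean of 5 CPM. The profiles are dominated by the difference between genotypes, and the measure describes these 6 libraries only.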

How the data were processed

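Counts per gene were deposited by the authors as whole read counts, 1 file per library. The submitters' processing notes name the GRCz11 assembly, HTSeq 0.9.1, STAR 2.7.0a, DESeq2 and Trim Galore. The sources used here do not give the annotation or strand setting. The 5 rows naming no gene held 20.1% to 23.0% of counts and were left out. The authors' deposited table holds log2 values per library, log2 fold changes and adjusted p-values per the file headers.

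In R 4.3.3, edgeR 4.0.16 was run with filterByExpr (minimum count 10, minimum total 15), TMM and glmQLFTest, with genotype as the only term. Benjamini-Hochberg adjustment covered 20438 genes. SE is the absolute log2 fold change over the root of F. The common biological coefficient of variation was 35.3%. The steps were tested on simulated data. Alternatives included DESeq2 1.42.0 and limma 3.58.1 (voom with quality weights).

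The 7 genes, lists and tests were chosen with earlier results of these data known. The naming rule covers all 7 genes, up to 4 risen and 4 fallen genes per list by p (or the 2 most abundant), and 2 similar profiles per gene. The labels call the libraries biological replicates; replicate libraries differed by more than sampling noise. In the RefSeq table of another assembly (GRCz12tu), cybb, ncf4 and nos2b each overlap 1 other gene, whose reads may not be separable without strand. 1 gene of the oxidase is not reported here.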

Additional observations from a re-analysis of the deposited data

How the results depend on the processing

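Over 15 alternative fits, 4 to 6 of the 7 genes were called higher and 0 lower. The calls of acod1, cybb, ncf1 and ncf4 held in every alternative fit, that of nos2b in 13, cyba was called in 9 and nos2a in 0. The 3 ratios kept their sign in all 9 alternatives each. The ratio difference was 0.71 to 1.41 for acod1 to cybb, 2.58 to 2.83 for cybb to cyba and -5.19 to -3.50 for nos2a to nos2b.

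Over all genes, 3012 were called, 2025 higher and 987 lower. DESeq2 called 4665 (1921 lower), and glmTreat against a fold of 1.5 called 1191 (1057 higher, 134 lower). Lower calls numbered 1675 with factors from the upper quartile and 564 with unscaled library sizes. Leaving out 1 library gave 1356 to 2527 calls, 1157 to 1828 higher and 199 to 737 lower, with fewer samples in each fit. The lowest of each came without WT replicate 3. The cause of the other shifts was not tested. noxa1, not called, changed sign without WT replicate 3 (0.28), mutant replicate 2 (0.21) and mutant replicate 3 (0.06), with a range of -1.07 to 0.28 over the fits that left out a library. arg1 did not pass the stricter filter, and DESeq2 gave no adjusted p for irg1l.

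Between same-numbered libraries, deviations from the genotype means correlated at 0.236, 0.033 and 0.162. Without other pairings to compare, these values cannot decide whether same-numbered libraries were pairs. With the replicate number as a block 3007 genes and 6 of the 7 were called, cyba included (edgeR adjusted p = 0.0348). For the ratios a permutation within replicate number gave p = 0.25, the smallest possible.

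Depth limits arg1 and irg1l, with libraries of under 10 reads, more than the 7 genes, which held at least 26 reads in each library.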
